A study of Mus musculus with 6 samples.

Results

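Nuclear-encoded oxidative phosphorylation genes were examined in whole mouse lung. The genes were taken by name: every protein-coding mouse gene whose symbol begins with Nduf, Uqcr, Cox4 to Cox8 or Atp5, together with Sdha, Sdhb, Sdhc and Sdhd. The RefSeq annotation holds 96 such genes, and 93 of the 24061 rows of the count table belonged to them. Ndufb1, Ndufb4b and Ndufb4c were not analysed here. By role, 36 genes were counted as subunits of complex I, 8 as complex I assembly factors (the Ndufaf genes), 4 as complex II, 8 as complex III, 20 as complex IV and 17 as ATP synthase. Ndufa4 and Ndufa4l2 carry complex I names and were placed with complex IV, where the Ndufa4 protein is now assigned.

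The libraries came from 2 groups of mice with 3 RNA-seq libraries each. Controls carried CCSP alone (CCSP/-) and the other mice carried CCSP and TGFalpha (CCSP/TGFalpha). Both received doxycycline for 3 weeks, so the controls share the drug and the CCSP allele. CCSP stands for club cell secretory protein; its promoter is a tool for aiming transgenes at lung epithelium. TGFalpha is a ligand of the EGF receptor. The series title places the comparison in pulmonary fibrosis induced by TGFalpha. Age, sex, strain, and whether a library came from 1 animal or several, are not given in the sources used here, so a p-value here reflects the spread among these 6 libraries and no more. The libraries held 21479006 to 24914322 counts. All 7 lung markers checked, among them the surfactant gene Sftpc and the club cell gene Scgb1a1, were present in every library, with summed levels of 12971 to 18331 CPM (counts scaled to a library of 1e+06). Some of them moved with the group. Scgb1a1, the gene of CCSP itself, fell from 5442, 2590 and 6164 CPM to 1678, 2252 and 1751 CPM (log2 fold change -1.32 ± 0.34, edgeR adjusted p = 0.0491), a call that held in 1 of the 6 fits with 1 library left out. Cdh5, the endothelial cadherin gene, had 567.1, 1151 and 934.6 CPM in controls and 282.4, 306 and 593.7 CPM in CCSP/TGFalpha lungs (-1.17 ± 0.35, edgeR adjusted p = 0.0795; DESeq2 0.00239). Control replicate 1 and TGFalpha replicate 1 stood apart in skeletal muscle transcripts. The 18 skeletal muscle markers summed to 2503 and 4069 CPM in these 2 libraries and to 132.8 to 168.0 CPM in the other 4. Some results below are also given without both of them, and some without TGFalpha replicate 1 alone.

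Oxidative phosphorylation takes place at the inner mitochondrial membrane. Complex I takes electrons from NADH and complex II from succinate, complex III passes them to cytochrome c, and complex IV gives them to oxygen. The protons pumped by complexes I, III and IV drive ATP synthase. Most subunits are encoded in the nucleus, and a small set is encoded by mitochondrial DNA. The 13 mitochondrially encoded subunit genes were not analysed here. The nuclear subunit genes are known for promoters that share sites of the factors NRF1, GABPA (an ETS family member) and YY1, which is why promoter windows are shown first.

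RefSeq promoter windows (GRCm38.p6, the build also called mm10) were found for 76 of the 93 genes. They run from 250 bases before to 50 bases after a start site. Of the 81 windows, 15 have a start site over 50 bases inside the annotated gene range. The windows were searched on both strands for GCGCATGC (NRF1), CCGGAAG (ETS) and AAGATGGC (YY1). The NRF1 motif was in 12 of the 76 genes (15.8%), against 3.05% of the 27025 genes with a window and 3.93% of the 17491 protein-coding ones. The ETS motif was in 19 (25%), against 9.93% and 12.9%. The YY1 motif was in 11 (14.5%), against 3.19% and 3.57%. Members with a motif had a median log2 fold change close to that of members without it: 0.52 against 0.49 for NRF1, 0.49 against 0.54 for ETS and 0.46 against 0.51 for YY1. A match describes letters in a window and does not show that a factor binds there.

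4 windows are printed here 5' to 3', from 250 bases before to 30 bases after the start site, with motif matches in capitals. Cox6a1, the common form of a complex IV subunit, shows the NRF1 motif on both strands, overlapping, with first bases 162 and 160 bases before the start site, and the ETS motif on the minus strand at 16 bases before it. Ndufaf8, an assembly factor of complex I, shows ETS at 8 bases before and YY1 at 10 bases after the start site. Atp5g3 and Ndufa13 are shown because they were the members that passed the test described below. Neither window held any of the 3 motifs, and their start sites lie 1138 and 538 bases inside the gene range, so another start site of the same gene is not covered.
Cox6a1, chr5:115348929-115349208, minus strand: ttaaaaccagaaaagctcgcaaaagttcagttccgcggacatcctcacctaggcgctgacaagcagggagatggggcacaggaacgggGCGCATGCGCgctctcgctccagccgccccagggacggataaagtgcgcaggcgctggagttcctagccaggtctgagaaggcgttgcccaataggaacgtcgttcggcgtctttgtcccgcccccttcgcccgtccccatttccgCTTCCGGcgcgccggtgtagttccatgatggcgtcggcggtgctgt
Ndufaf8, chr11:120098684-120098963, plus strand: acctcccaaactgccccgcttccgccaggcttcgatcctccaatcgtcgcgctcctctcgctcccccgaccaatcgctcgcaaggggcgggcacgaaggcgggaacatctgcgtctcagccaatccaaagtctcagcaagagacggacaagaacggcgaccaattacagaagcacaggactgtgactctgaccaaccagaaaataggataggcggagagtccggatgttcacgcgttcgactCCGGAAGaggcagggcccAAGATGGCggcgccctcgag
Atp5g3, chr2:73911297-73911576, minus strand: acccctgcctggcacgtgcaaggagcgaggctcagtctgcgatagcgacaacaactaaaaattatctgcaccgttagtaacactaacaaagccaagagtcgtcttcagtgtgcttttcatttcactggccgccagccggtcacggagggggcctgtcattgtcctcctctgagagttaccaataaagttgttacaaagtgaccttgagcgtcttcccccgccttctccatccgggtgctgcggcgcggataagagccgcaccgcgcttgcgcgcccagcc
Ndufa13, chr8:69901991-69902270, minus strand: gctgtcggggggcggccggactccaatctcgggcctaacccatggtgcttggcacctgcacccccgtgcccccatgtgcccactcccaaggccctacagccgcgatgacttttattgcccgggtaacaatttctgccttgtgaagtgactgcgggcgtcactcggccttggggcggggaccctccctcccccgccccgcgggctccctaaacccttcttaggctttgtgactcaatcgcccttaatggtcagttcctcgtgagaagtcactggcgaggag

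Transcript levels differed widely between subunits of a single complex. Levels between genes are compared as RPKM, which is CPM divided by transcript length in kilobases, with 1 annotated coding transcript per gene. For 51 genes the annotation holds coding transcripts of several lengths, so their RPKM depends on the transcript chosen. In the controls the highest mean was 413.3 RPKM for Ndufa4, followed by 300.8 for Cox5a, which encodes a subunit on the matrix side of complex IV, and 277.1 for Atp5b, the catalytic beta subunit of ATP synthase. Complex I ran from 7.79 RPKM for Ndufab1, the mitochondrial acyl carrier protein, to 132.7 for Ndufa2. Complex II ran from 13.2 RPKM for Sdhc to 78.4 for Sdhd, its 2 membrane anchors. In complex III the range was 8.95 RPKM for Uqcrq to 173.5 for Uqcrh, the hinge protein. The assembly factors, which are needed to build complex I and are not part of the finished enzyme, lay between 3.47 RPKM for Ndufaf3 and 12.4 for Ndufaf7. These low ends depend on the lengths used: 3479 bases for Ndufab1, 3171 for Sdhc, 1521 for Uqcrq and 1487 for Ndufaf3.

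Summed over the 93 genes, the transcripts took 6332, 5062 and 5294 CPM in controls (replicates 1, 2 and 3, the order used throughout) and 11020, 6849 and 6334 CPM in CCSP/TGFalpha lungs. TGFalpha replicate 1 was far above the other 5 libraries, TGFalpha replicate 2 was above the controls, and TGFalpha replicate 3 lay level with control replicate 1. As a share of scaled counts the sums were 0.633, 0.506 and 0.529% in controls and 1.1, 0.685 and 0.633% in CCSP/TGFalpha lungs. In bulk tissue, more cells of a type and more RNA per cell cannot be told apart.

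Of the 93 genes, 90 passed the filter on low counts and were tested across all 16089 genes with edgeR's quasi-likelihood test. Only Atp5g3 and Ndufa13 rose at a Benjamini-Hochberg adjusted p under 0.05, and none fell. The background is 5.03% of all tested genes called higher and 3.29% called lower, and 2 of 90 is below the first of these. Most members shared a direction all the same: 87 of 90 genes had a positive log2 fold change (median 0.49), against 8191 of 16089 genes (median 0.01) overall. Before adjustment, 24 members were higher at p under 0.05 and none lower by edgeR, against 14.2% of all genes higher. DESeq2 called 10 members higher, with a background of 7.63%, and limma-voom called 2. Neither called a member lower, and DESeq2 had 1 lower at an unadjusted p under 0.05. For 19 members every CCSP/TGFalpha library lay above every control, and for none were they all below. Over all genes these shares were 17.7 and 15.5%.

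For single genes the precision was limited. The median standard error of a member's log2 fold change was 0.28. The 95% interval was built from the same F statistic as the unadjusted p. It lay wholly above 0 for the same 24 genes that had an unadjusted p under 0.05, and spanned 0 for 66. It lay wholly below a log2 fold change of 1, a 2-fold rise, for 26.

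1 library carried much of the shift. Relative to the control mean, the members' median log2 level was 0.23, -0.23 and -0.03 in the controls and 0.98, 0.30 and 0.09 in CCSP/TGFalpha lungs. TGFalpha replicate 1 was above every control for 85 of the 90 genes (94.4%), TGFalpha replicate 2 for 48 (53.3%) and TGFalpha replicate 3 for 30 (33.3%). The shares over all genes were 38.1, 32.5 and 31.6%. Among controls, replicate 1 was the highest for 72 genes and replicate 2 the lowest for 61. Without TGFalpha replicate 1 the median log2 fold change was 0.22, with 73 of 90 positive. No member was called higher by edgeR in that fit (9 higher and 1 lower at an unadjusted p under 0.05). Of all 16364 genes tested there, 317 were called higher. Without both libraries rich in muscle transcripts (control replicate 1 and TGFalpha replicate 1, the muscle-rich libraries) the median was 0.33, with 83 of 90 positive. edgeR then called no member (14 higher and 1 lower at an unadjusted p under 0.05), and 1.91% of all genes were called higher after adjustment. The share of all genes at an unadjusted p under 0.05 is not given for these 2 fits, so their unadjusted counts have no background here. In the 4 remaining libraries both TGFalpha replicates lay above both controls for 42 members (46.7%), against 26.2% of all genes. The part of skeletal muscle in the shift over the 6 libraries was not tested. Leaving out both muscle-rich libraries also removes whatever else sets them apart.

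**Figure D1:**
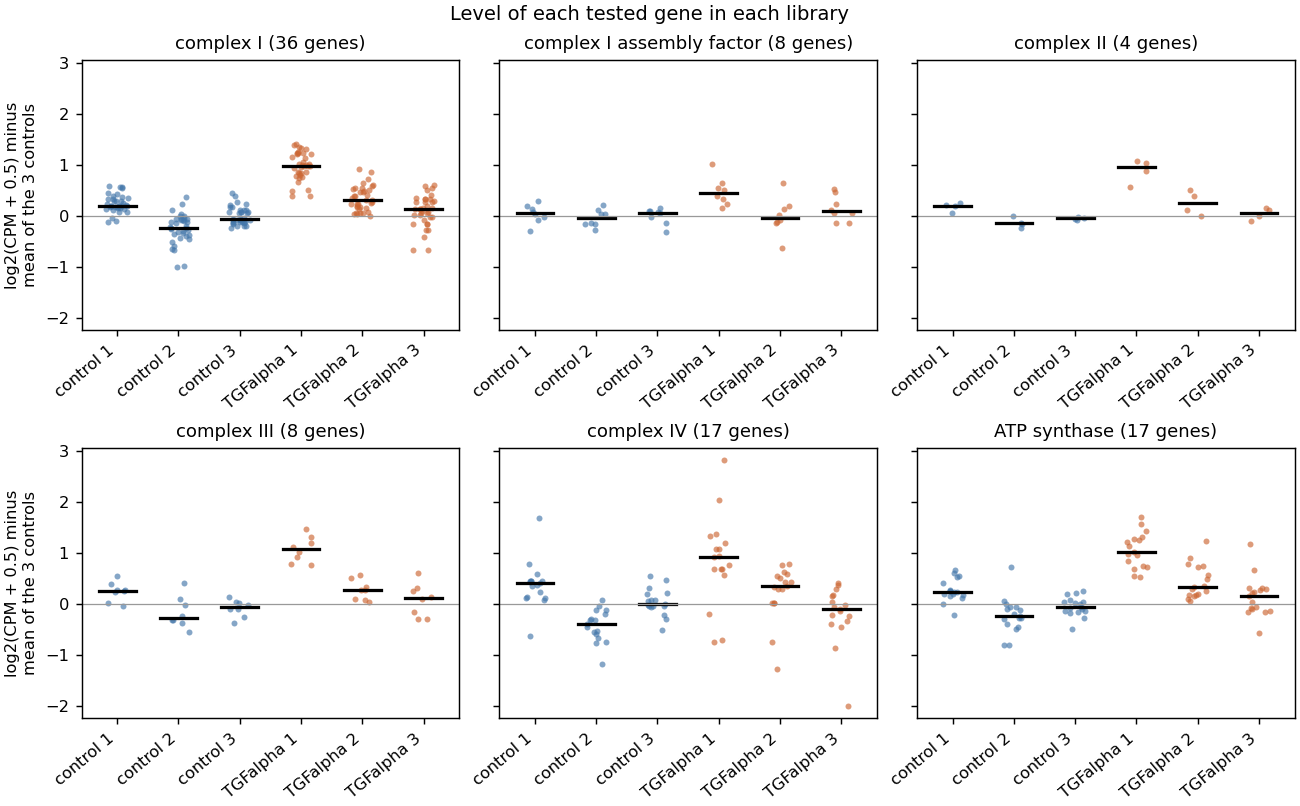
Level of each of the 90 tested genes in each library, as log2(CPM + 0.5) minus the mean of the 3 controls. Points are genes, black lines are medians, blue marks controls and orange marks CCSP/TGFalpha, and TGFalpha replicate 1 has the highest median in all 6 panels.

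Many members have short transcripts, and short transcripts in general had a similar order of libraries. The third of members with the shortest transcripts (315 to 625 bases) had a median log2 fold change of 0.52, and the third with the longest (1079 to 3632 bases) one of 0.47. All 274 tested genes with transcripts up to 625 bases, the 30 shortest members included, had a median of 0.40, with 207 positive. Their library medians were 0.22, -0.24 and 0.04 in controls and 0.75, 0.36 and -0.01 in CCSP/TGFalpha lungs, close to those of the shortest members (0.37, -0.39, 0.05, 0.98, 0.45 and -0.04). The 13759 genes of 1079 bases or more, with no upper limit, had a median that rounds to 0, with 6859 positive. The longest members lay above that median, but these genes and the longest members were not matched in length. Without TGFalpha replicate 1 the medians of the shortest and longest members were 0.24 and 0.13, and without both muscle-rich libraries 0.35 and 0.22. What transcript length contributed was not tested.

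Complex I, the largest complex of the chain, had 35 of 36 genes with a positive log2 fold change and a median of 0.50. Ndufa13, an accessory subunit also known as GRIM-19, was the 1 gene of the complex that rose. Ndufa13 (gene ID 67184, chromosome 8, 69894163 to 69902558) had 37.2, 52.6 and 34.1 CPM in controls and 96.0, 76.9 and 61.3 CPM in CCSP/TGFalpha lungs. The groups did not overlap, although control replicate 2 came near TGFalpha replicate 3. Its log2 fold change was 0.92 ± 0.23 (SE, n = 3 per group; edgeR adjusted p = 0.0454). The call was lost when any 1 library other than TGFalpha replicate 3 was left out, with edgeR adjusted p between 0.0642 and 0.182.

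Ndufb5, an accessory subunit of the membrane arm, had 159.8, 134.6 and 128.8 CPM in controls and 355.3, 204.4 and 200 CPM in CCSP/TGFalpha lungs. All 3 CCSP/TGFalpha libraries were above the controls, and the log2 fold change was 0.84 ± 0.24 (edgeR adjusted p = 0.069). Ndufa12, an accessory subunit of the peripheral arm, had 30.3, 31.5 and 25.2 CPM against 74.1, 33.8 and 42.6 CPM, with a log2 fold change of 0.79 ± 0.28 (edgeR adjusted p = 0.115). The gap between control replicate 2 and TGFalpha replicate 2 was small there. Ndufa2 had 70.7, 88.3 and 68.7 CPM against 181.4, 78.5 and 115.8 CPM, with overlap of the groups. The core subunits that carry flavin and iron-sulfur clusters did not pass the edgeR test. They did not move alike. Ndufv2, an iron-sulfur subunit of the NADH-oxidising module, had 64.3, 52.6 and 51.7 CPM in controls and 131.3, 82 and 67.9 CPM in CCSP/TGFalpha lungs, without overlap. Its log2 fold change was 0.74 ± 0.25 (edgeR adjusted p = 0.102), and it passed as higher by DESeq2 (adjusted p = 0.035). Ndufv1, which binds NADH, had a log2 fold change of 0.59 ± 0.27, and Ndufs1, the largest iron-sulfur subunit, one of 0.13 ± 0.20. Ndufs5 was the gene with a negative value, -0.06 ± 0.41.

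The 8 complex I assembly factors had a median log2 fold change of 0.14, and of -0.02 without TGFalpha replicate 1. Without both muscle-rich libraries it was 0.09. Ndufaf2, a paralogue of Ndufa12 that acts in late complex I assembly, had 4.69, 3.94 and 4.74 CPM in controls and 9.56, 7.27 and 6.61 CPM in CCSP/TGFalpha lungs. Its groups did not overlap, and its log2 fold change was 0.81 ± 0.25 (edgeR adjusted p = 0.0861). Ndufaf7, a methyltransferase that acts on a core subunit, was level in both groups at 21.7 ± 1.81 and 21.8 ± 2.35 CPM (SD, n = 3 each). The 95% interval of its log2 fold change ran from -0.35 to 0.37.

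Complex II joins the respiratory chain to the TCA cycle. All 4 of its genes had a positive log2 fold change, with a median of 0.50, and none passed the edgeR test before or after adjustment at a p under 0.05. Sdha, the flavoprotein, had 172.9, 136.9 and 148.7 CPM in controls and 225.0, 164.7 and 142.5 CPM in CCSP/TGFalpha lungs. Sdhb, the iron-sulfur subunit, had 87.4, 83.1 and 80.6 CPM against 177.2, 83.8 and 93.1 CPM. The anchors Sdhc and Sdhd had 49.4, 35.3 and 40.8 against 85.8, 54.4 and 45.2 CPM, and 111.5, 87.2 and 90.8 against 178.0, 135.8 and 95.6 CPM. TGFalpha replicate 1 was the highest library for each, and the groups overlapped for all 4. The log2 fold changes were 0.21 ± 0.20, 0.50 ± 0.27, 0.56 ± 0.25 and 0.50 ± 0.23, with edgeR adjusted p from 0.193 to 0.517. Without TGFalpha replicate 1 they were 0.01, 0.08, 0.25 and 0.26, and without both muscle-rich libraries 0.10, 0.11, 0.38 and 0.37.

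The 8 complex III genes all had positive log2 fold changes (median 0.60). None passed at an adjusted p under 0.05 by edgeR (1 at an unadjusted p under 0.05). Uqcrh had 113.5, 75.6 and 95.6 CPM in controls and 177.1, 138.1 and 83.9 CPM in CCSP/TGFalpha lungs. Uqcr11, a small subunit of the complex, had 50.8, 41.7 and 35.4 CPM against 105.0, 50.9 and 46.5 CPM. TGFalpha replicate 3 lay inside the control range for both. Their log2 fold changes were 0.49 ± 0.28 and 0.66 ± 0.31. Without TGFalpha replicate 1 the median of the complex was 0.20, and without both muscle-rich libraries it was 0.31.

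**Figure D2:**
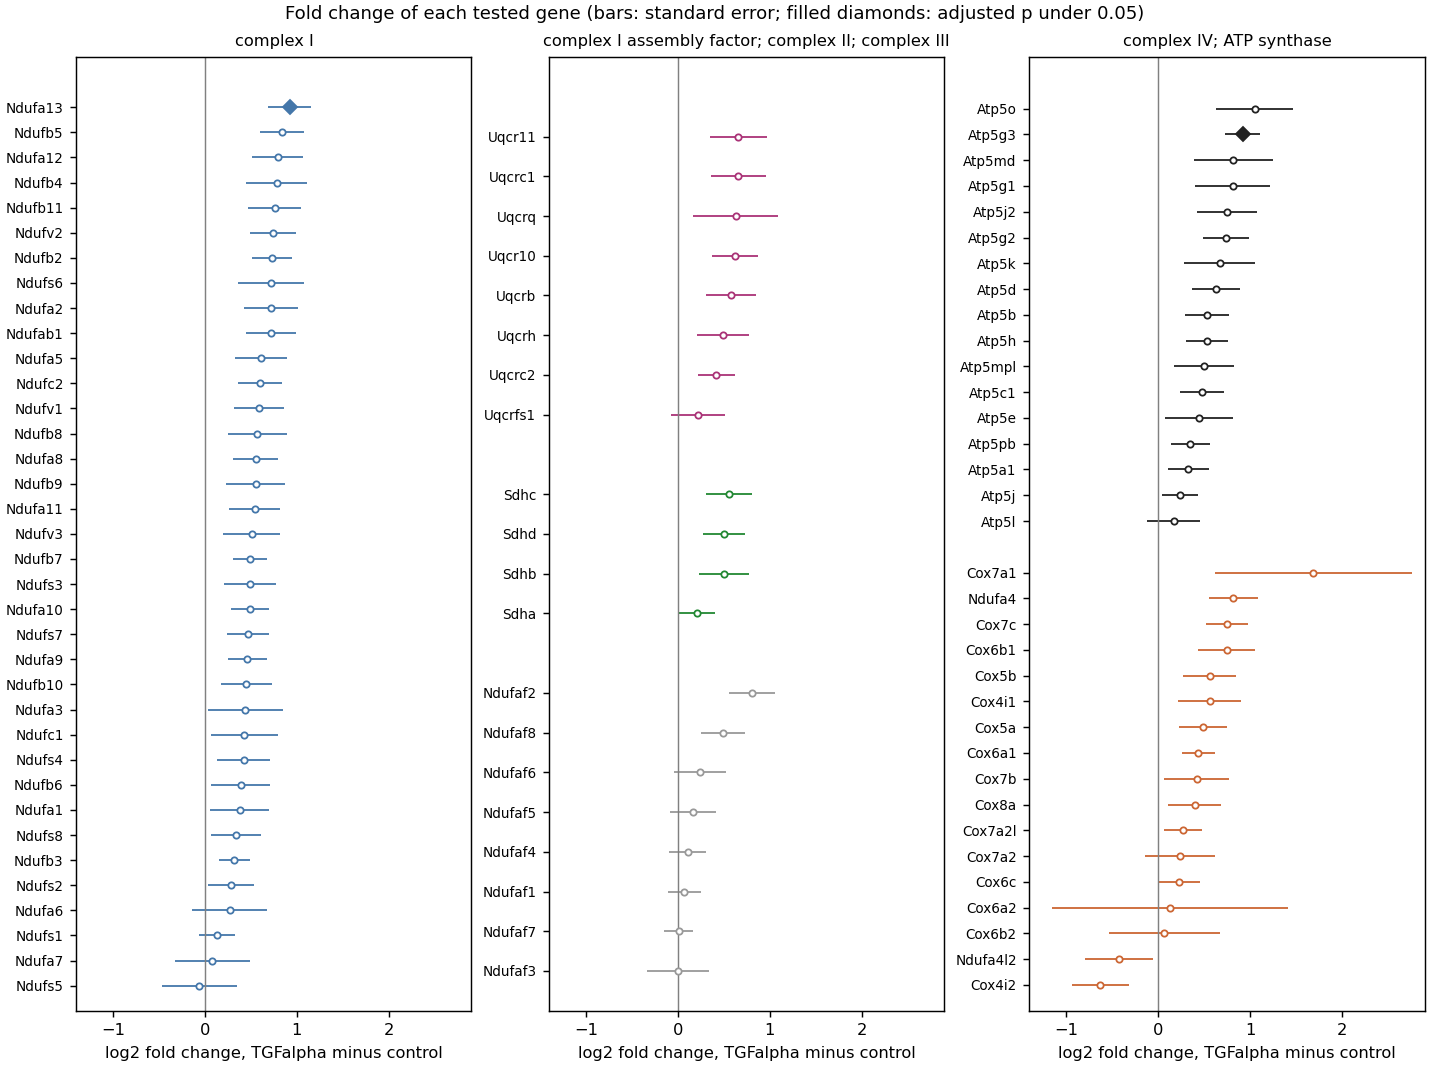
Log2 fold change (CCSP/TGFalpha minus control) of the 90 tested genes with its standard error, by complex and sorted within it. The filled diamonds are Ndufa13 and Atp5g3, the members with an adjusted p under 0.05. Of the log2 fold changes 87 are positive, with that of Ndufaf3 drawn on the line at 0, to which it rounds.

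ATP synthase gave the other call. Atp5g3 encodes subunit c, which forms the rotating membrane ring, and 3 genes make the same mature protein: Atp5g1, Atp5g2 and Atp5g3. Atp5g3 (gene ID 228033, chromosome 2, 73908447 to 73912464) had 205.8, 198.7 and 168.7 CPM in controls and 456.7, 327.7 and 301.7 CPM in CCSP/TGFalpha lungs. Each CCSP/TGFalpha library was well above the highest control. The log2 fold change was 0.92 ± 0.19 (edgeR adjusted p = 0.0295), and 0.72 without TGFalpha replicate 1 (adjusted p = 0.069). Leaving out control replicate 2, control replicate 3 or TGFalpha replicate 2 also ended the call (edgeR adjusted p = 0.104, 0.141 and 0.0581).

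Atp5g2 had 54.8, 39.5 and 46.5 CPM in controls and 108.7, 68.8 and 57.6 CPM in CCSP/TGFalpha lungs. The groups were apart by a small margin, and the log2 fold change was 0.74 ± 0.25 (edgeR adjusted p = 0.104). Atp5g1 had 27.6, 13 and 14.2 CPM against 52.1, 24.3 and 20.2 CPM. Its groups overlapped, and its log2 fold change was 0.81 ± 0.41 (edgeR adjusted p = 0.243). Atp5b had 587.4, 506.4 and 499.2 CPM against 1067, 593.1 and 640.1 CPM. Its control replicate 1 and TGFalpha replicate 2 were nearly equal, and the log2 fold change was 0.53 ± 0.24 (edgeR adjusted p = 0.203). All 17 ATP synthase genes were positive, with a median of 0.53, and 16 stayed positive without TGFalpha replicate 1, with a median of 0.28. Without both muscle-rich libraries all 17 were positive, with a median of 0.42.

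A few members did not follow the common order of the control libraries. Control replicate 2 was the highest control for 8 genes, among them Atp5o, Uqcrc1, Uqcrc2 and Ndufa13. Atp5o, which encodes the OSCP subunit of the ATP synthase stalk, had 129.8, 249.7 and 107.4 CPM in controls and 493.9, 173.2 and 342.3 CPM in CCSP/TGFalpha lungs. Its log2 fold change of 1.05 ± 0.42 did not pass (edgeR adjusted p = 0.153). Uqcrc1, a core protein of complex III, had 68.4, 94.4 and 54.3 CPM against 161.4, 74.7 and 107.8 CPM, with the same order of libraries within each group. These genes and this order were picked out after their values were seen.

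Complex IV had 17 tested genes, of which 15 were positive (median log2 fold change 0.42). None passed by edgeR, and 4 of the 17 were higher before adjustment, at a p under 0.05, against 14.2% of all genes. Ndufa4 had 271.8, 218.7 and 265.8 CPM in controls and 651.1, 376.3 and 307.5 CPM in CCSP/TGFalpha lungs. All 3 CCSP/TGFalpha libraries were above the controls, with a log2 fold change of 0.82 ± 0.27 (edgeR adjusted p = 0.101). Cox7c, a small structural subunit, had 130.5, 82.1 and 98.4 CPM against 216.1, 172.9 and 132.4 CPM, where TGFalpha replicate 3 was barely above control replicate 1. Its log2 fold change was 0.75 ± 0.23 (edgeR adjusted p = 0.0867), and it was unchanged to 2 decimals when both muscle-rich libraries were left out. Cox6a1 had 136.5, 125.8 and 123.7 CPM against 219.7, 158.2 and 145.5 CPM, also without overlap, and a log2 fold change of 0.44 ± 0.18. Cox5a had 252.1, 175.1 and 154.9 CPM against 366.5, 240.6 and 212.4 CPM, with overlap.

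Complex IV is the part of the chain with tissue-specific subunit forms. Cox4i2 is the alternative form of the regulatory subunit Cox4i1 and is known for its expression in lung and its response to low oxygen. Cox4i2 had 14.8, 24.7 and 34.4 CPM in controls and 14.1, 13.6 and 20 CPM in CCSP/TGFalpha lungs, and Cox4i1 had 81.1, 42.8 and 59.0 CPM against 136.0, 75.1 and 57.9 CPM. Control replicate 1 sat with the CCSP/TGFalpha libraries for Cox4i2, and the groups overlapped for both genes. The log2 fold changes were -0.63 ± 0.31 for Cox4i2 (edgeR adjusted p = 0.227; 95% interval -1.33 to 0.07) and 0.56 ± 0.34 for Cox4i1 (0.332). As a share of the summed RPKM of the pair, Cox4i2 took 15.7, 37.1 and 37.4% in controls and 9.63, 15.7 and 26.1% in CCSP/TGFalpha lungs. Without both muscle-rich libraries the log2 fold change of Cox4i2 was -0.82.

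Pericytes and vascular smooth muscle are cells in which Cox4i2 is known to be expressed. The 8 pericyte markers, each with counts in every library, summed to 145.6, 245.4 and 218.7 CPM in controls and 140.3, 171.2 and 192.9 CPM in CCSP/TGFalpha lungs. The sum was low in control replicate 1, as Cox4i2 was, and was mostly Pdgfrb, Abcc9 and Notch3, whereas Rgs5 (10.5, 2.2 and 4.29 CPM) and Kcnj8 (4.97, 3.57 and 4.11 CPM) were highest in that control. None passed by edgeR (1 lower at an unadjusted p under 0.05). Notch3, a pericyte receptor, had the smallest edgeR adjusted p, 0.111, and passed as lower by DESeq2 (0.0211). The 7 smooth muscle markers summed to 204.6, 237.3 and 298.8 CPM in controls and 746, 487.5 and 308.9 CPM in CCSP/TGFalpha lungs, and moved both ways. Myh11, the smooth muscle myosin gene, fell from 21.3, 37.1 and 45.4 CPM to 10.2, 11.3 and 14.3 CPM (log2 fold change -1.54 ± 0.28, edgeR adjusted p = 0.0196). Tagln, an actin-binding protein gene, rose from 41.3, 68.5 and 75.8 CPM to 346.5, 251.1 and 145.6 CPM (2.0 ± 0.34, edgeR adjusted p = 0.0157). Leaving out control replicate 2 or control replicate 3 ended both calls, and leaving out TGFalpha replicate 1 or TGFalpha replicate 2 ended that of Myh11 (edgeR adjusted p from 0.0629 to 0.0873 over these fits). Cox4i2 shared the order of the controls with Myh11, Tagln and Acta2, another smooth muscle marker. The rest of the 7, Cnn1, Actg2, Des and Lmod1, did not share it and were lowest in control replicate 2. Des had 69.8, 30.7 and 34.4 CPM in controls and 155.1, 59.3 and 46.1 CPM in CCSP/TGFalpha lungs. Tagln and Acta2 had positive log2 fold changes (Acta2 0.77 ± 0.34, edgeR adjusted p = 0.193). The part of either cell type in the Cox4i2 values was not tested.

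Ndufa4l2, the paralogue of Ndufa4 known as a target of hypoxia-inducible factor, had 6.10, 3.53 and 7.94 CPM in controls and 3.10, 5.67 and 4.35 CPM in CCSP/TGFalpha lungs. The groups overlapped, and its log2 fold change was -0.42 ± 0.37 (edgeR adjusted p = 0.497). It took 1.04 to 1.91% of the RPKM of the pair in controls and 0.31 to 0.975% in CCSP/TGFalpha lungs. The 2 negative values in complex IV are those of Cox4i2 and Ndufa4l2, and both 95% intervals span 0 (Ndufa4l2 -1.27 to 0.43). The alternative forms Cox6a2, Cox6b2 and Cox7a1 had positive values (0.13 ± 1.28, 0.07 ± 0.60 and 1.69 ± 1.07).

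**Figure D3:**
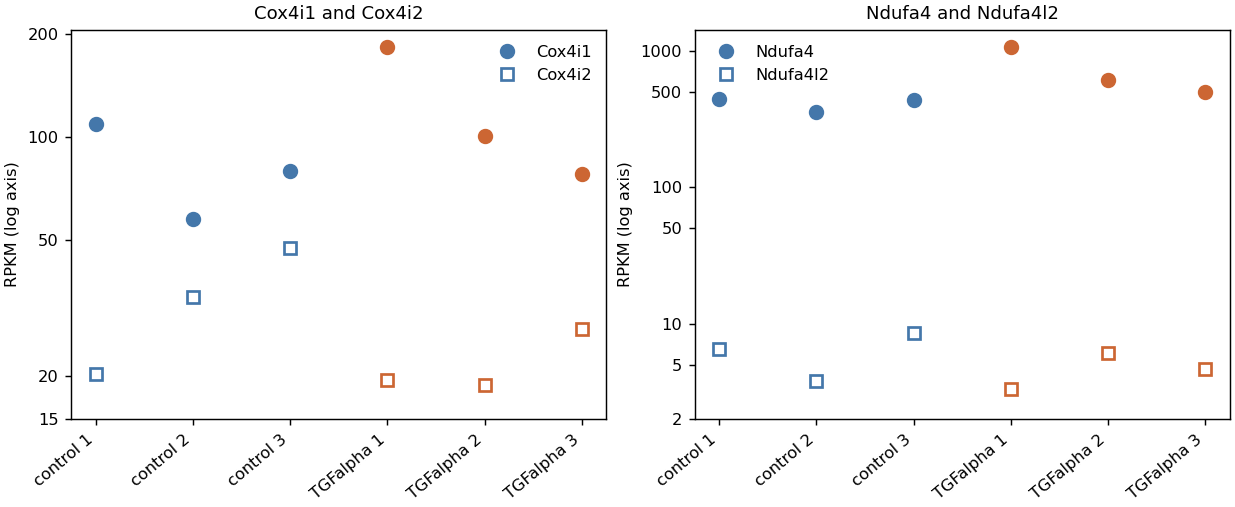
RPKM of Cox4i1 and Cox4i2 (left) and of Ndufa4 and Ndufa4l2 (right) in each library on log axes. Filled circles are the common form and open squares the alternative form, which is lower in every library.

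The forms used by heart and skeletal muscle followed the muscle-rich libraries. Cox6a2 had 9.15, 0.824 and 1.6 CPM in controls and 11.8, 0.740 and 0.251 CPM in CCSP/TGFalpha lungs. Cox7a1 had 2.49, 0.687 and 1 CPM against 11.8, 1.27 and 0.460 CPM. Cox8b, which did not pass the filter, had 52, 0 and 3 counts in controls and 112, 10 and 0 counts in CCSP/TGFalpha lungs. Each was highest in TGFalpha replicate 1 and next highest in control replicate 1. Cox7a1 had the largest fitted log2 fold change of the members, 1.69 ± 1.07, with an edgeR adjusted p of 0.344 and a value of 0.03 without both muscle-rich libraries. For Cox6a2 the log2 fold change was 0.13 ± 1.28, and its 95% interval ran from -2.81 to 3.07. None of the 15 tested skeletal muscle markers passed by edgeR, before or after adjustment.

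As a sum, the 10 heart muscle markers, which the sleeve of the pulmonary veins could bring, did not share that order. They summed to 185.8, 110.8 and 169.9 CPM in controls and 118.7, 90.3 and 61.2 CPM in CCSP/TGFalpha lungs. Of the 10, Myl3 (controls 19.7, 0 and 0 CPM, against 22.4, 0 and 0.0837 CPM) and Sln (6.62, 0 and 0.912 against 5.73, 1.07 and 0.126 CPM) were nonetheless high in the muscle-rich libraries. Of the 8 tested, 1 fell, Actc1, the cardiac actin gene (log2 fold change -1.54 ± 0.34, edgeR adjusted p = 0.035). This did not hold once any library but TGFalpha replicate 3 was left out (edgeR adjusted p from 0.0599 to 0.129). Of brown fat, another tissue rich in mitochondria, the defining gene Ucp1 had at most 0.0802 CPM in any library. Cidea and Elovl3 had at most 0.722 and 0.201 CPM. The list's other genes, Dio2 (8.22 to 18.7 CPM) and Ppargc1a (6.08 to 35.5 CPM), had counts in every library. The 6 white fat markers summed to 32.2, 12.2 and 13.5 CPM in controls and 27.2, 77.4 and 10.8 CPM in CCSP/TGFalpha lungs. None of the 5 tested passed by edgeR, and Cfd had the smallest adjusted p (0.301). Ciliated cells, like brown fat, are rich in mitochondria. Their 10 markers summed to 298.5 to 343.4 CPM in controls and 110.2 to 175.4 CPM in CCSP/TGFalpha lungs, and 6 of 10 fell (1 to 5 with 1 library left out).

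**Figure D4:**
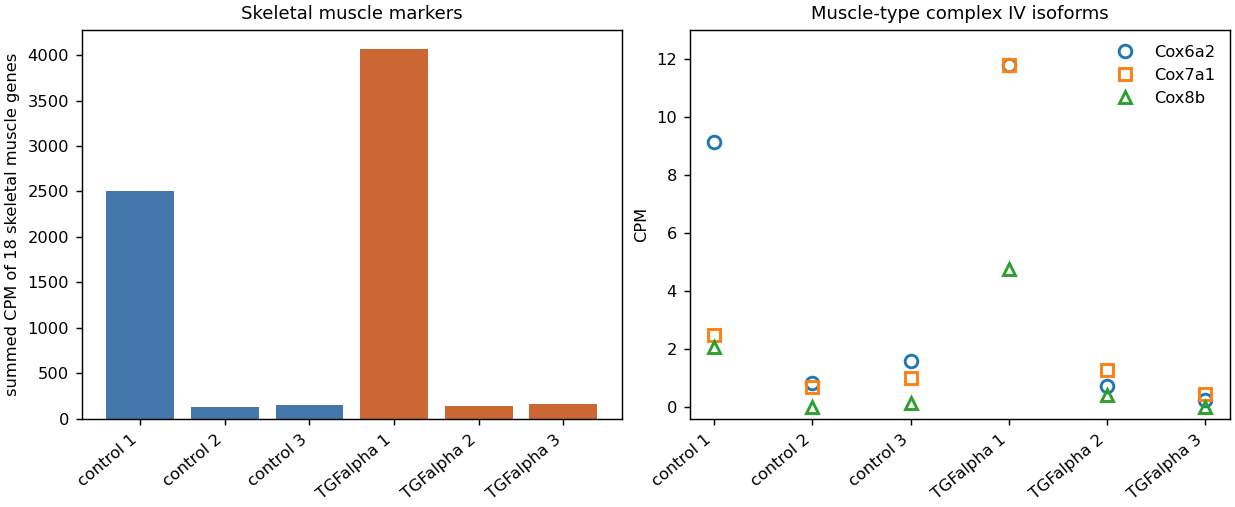
Summed CPM of 18 skeletal muscle markers (left, bars from 0) and CPM of the muscle-type forms Cox6a2, Cox7a1 and Cox8b (right) in each library. Control replicate 1 and TGFalpha replicate 1 hold the high values in both panels.

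The alternative forms Cox6b2, Cox7b2 and Cox8c were low. Cox6b2, known from testis, had 2.21, 0.687 and 1.96 CPM in controls and 1.23, 2.92 and 0.963 CPM in CCSP/TGFalpha lungs, beside 51.5 to 171.6 CPM of its common partner Cox6b1. Cox7b2 had 3 counts, all in control replicate 3, and Cox8c had 0 counts in every library. Cox7a2l was not low: it took 56.9 to 72.3% of the summed RPKM of Cox7a1, Cox7a2 and Cox7a2l. The groups overlapped for Cox7a2, Cox7a2l, Cox7b and Cox8a, with log2 fold changes of 0.24 ± 0.38, 0.27 ± 0.21, 0.42 ± 0.35 and 0.40 ± 0.29. Cox6b1 had 0.75 ± 0.31 (edgeR adjusted p = 0.158).

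Genes that build or feed the chain had smaller positive medians over all 6 libraries. In each of the next lists neither edgeR nor limma-voom called a gene at an adjusted p under 0.05, and the edgeR counts at an unadjusted p under 0.05 are given in parentheses as higher and lower. DESeq2 called the complex IV assembly factors Cox14 and Cox16, and Uqcc2, all higher (adjusted p = 0.0475 for Cox14 and 0.039 for Uqcc2). Of 20 complex IV assembly factors 17 were positive, and the median log2 fold change was 0.23 (4 and 0). Cox14, which acts early in making the catalytic subunit, had the smallest adjusted p there (0.66 ± 0.20; edgeR adjusted p = 0.0807). The 9 tested complex I assembly factors outside the Ndufaf names had a median of 0.20 (0 and 0), led by Dmac2 (0.30 ± 0.19; adjusted p = 0.34). The 13 assembly factors of complexes II, III and V had a median of 0.32 (2 and 0), led by Uqcc2 (0.88 ± 0.32; adjusted p = 0.121). The 15 tested mobile carriers and their partners had a median of 0.21 (0 and 0 with all libraries). It was -0.02 without TGFalpha replicate 1 and 0.06 without both muscle-rich libraries. Etfb, a subunit of the electron transfer flavoprotein, led these 15 (0.72 ± 0.34; adjusted p = 0.208). The 24 genes of the TCA cycle and pyruvate dehydrogenase had a median of 0.25 (2 and 0), led by Pdhb (0.47 ± 0.18; adjusted p = 0.134). Most of the contrast with the members depended on TGFalpha replicate 1. Without it the assembly factor lists, in the order above, had medians of 0.19, 0.17 and 0.18, and the TCA list 0.09. The members then had 0.22, and complex IV 0.14. Without both muscle-rich libraries these lists had 0.22, 0.19, 0.22 and 0.17, against 0.33 for the members.

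Calls were found in the remaining lists. Among 22 genes of mitochondrial import and the outer membrane 19 were positive, with a median log2 fold change of 0.43. Phb, which encodes prohibitin of the inner membrane, rose from 34.5, 30.1 and 30.4 CPM to 67.4, 43.3 and 51.0 CPM (0.77 ± 0.19; edgeR adjusted p = 0.0436). Removing any library but TGFalpha replicate 2 ended that call (edgeR adjusted p from 0.0678 to 0.171). The 20 regulators of mitochondrial gene expression had a median of 0.03. The coactivator gene Ppargc1a had 11.3, 12.2 and 11.7 CPM in controls and 35.5, 6.08 and 11.1 CPM in CCSP/TGFalpha lungs, high only in TGFalpha replicate 1. Nrf1 and Gabpa, the genes of the factors whose motifs were searched, had log2 fold changes of 0.04 ± 0.16 and 0.03 ± 0.13. Ppargc1a, Nrf1 and Gabpa were chosen after their values were seen. Epas1, which encodes the hypoxia-inducible factor HIF-2alpha and is abundant in endothelium, fell from 1531, 1936 and 2122 CPM to 508.1, 591.4 and 1048 CPM (-1.38 ± 0.30; edgeR adjusted p = 0.0317). It stayed called without control replicate 1 or TGFalpha replicate 3, and the edgeR adjusted p was 0.0835 to 0.126 without any other 1 library. The endothelial marker Cdh5, given above, had a log2 fold change of -1.17 ± 0.35, and its part in the Epas1 value was not tested.

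Hypoxia and glycolysis genes had a median of 0.51 over 20 genes, with 4 that rose and 1 that fell. The glycolytic enzyme genes Tpi1, Eno1 and Pkm rose by log2 fold changes of 1.30 ± 0.30, 1.12 ± 0.26 and 0.91 ± 0.21, and the hypoxia-responsive gene Ankrd37 by 1.84 ± 0.46. Vegfa, an endothelial growth factor gene and a known hypoxia target, fell (-1.20 ± 0.28), each with an edgeR adjusted p from 0.0394 to 0.0469. Without both muscle-rich libraries the median of this list was 0.59, where that of the oxidative phosphorylation genes was 0.33. The number that rose was 1 without control replicate 1 and 6 without TGFalpha replicate 3. It was 0 by edgeR when any other single library was left out, with 6 to 8 higher at an unadjusted p under 0.05. The fall of Vegfa was lost in the same 4 fits, with edgeR adjusted p from 0.0988 to 0.147, and without both muscle-rich libraries (0.0637).

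**Figure D5:**
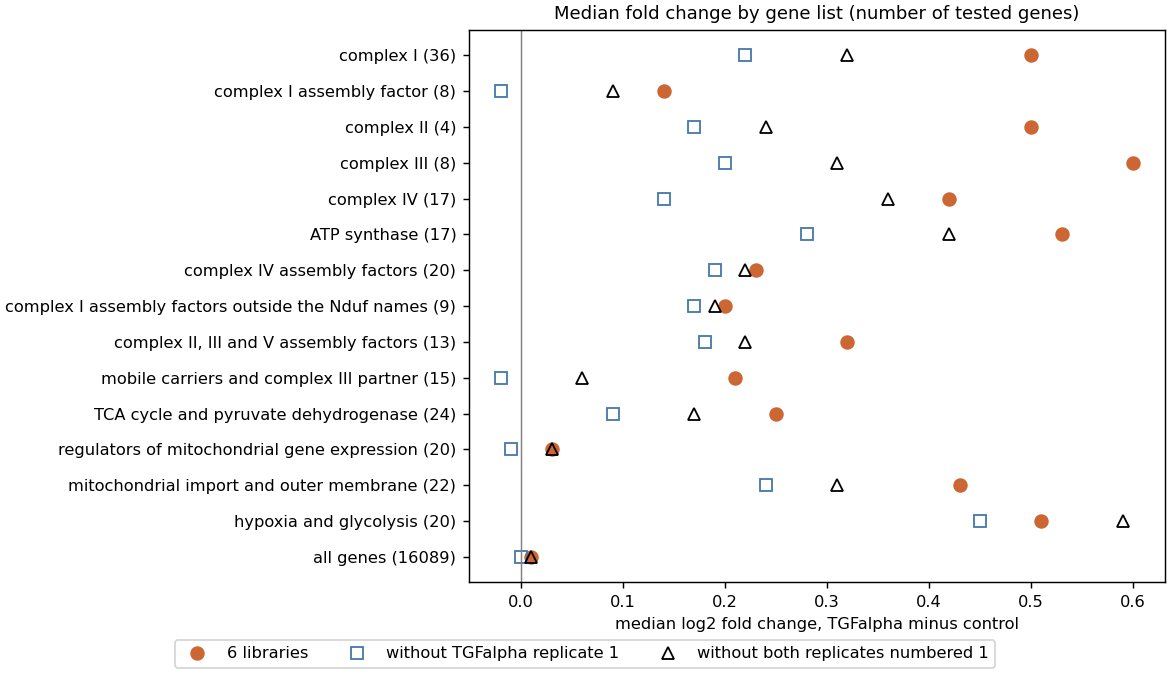
Median log2 fold change (CCSP/TGFalpha minus control) of each complex and of each related gene list, with all 6 libraries (circles), without TGFalpha replicate 1 (squares) and without both replicates numbered 1 (triangles). For all 6 groups of oxidative phosphorylation genes the square lies to the left of the circle.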

How the data were processed

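Gene counts from 6 mouse lung RNA libraries were used. The authors deposited raw counts per gene identifier, not normalized. Per the submitters' processing notes, bcl2fastq, CASAVA 1.8, TopHat and DESeq were used with mm10. The counting tool, strand setting and annotation are not given in the sources used here, so overlapping genes cannot be separated. RefSeq GRCm38.p6 named 23976 rows. It also holds 19 pseudogenes with member-like symbols (1 row, left out), so reads shared with such copies make these genes' counts uncertain.

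Members and gene lists were chosen with earlier results of these data known. Testing used edgeR 4.0.16 in R 4.3.3 (quasi-likelihood), with TMM scaling, edgeR's filter by group, group as the only term, and Benjamini-Hochberg adjustment over 16089 genes (threshold 0.05). The common biological coefficient of variation was 0.295. SE came from the coefficient and the F statistic. CPM used TMM-scaled totals. RPKM used the shortest principal coding transcript (GENCODE M21). The fit was tested on simulated counts. Alternatives were DESeq2 1.42.0, limma-voom (3.58.1), other scalings and filters, a replicate block, left-out libraries and an adjusted p of 0.01.

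Named were the called members, the 8 largest rises and falls among members whose mean reached 1 CPM and whose groups stayed apart (no fall qualified), the 2 members with the highest RPKM per complex, the Sdh genes, the tissue isoforms and the unfiltered members. From each other list, every called gene was named if 5 or fewer, else 3 per direction, and with no call the gene with the smallest adjusted p. Ranges, the extremes of RPKM and single genes given for a role (Ndufv1, Ndufv2, Ndufs1, Ndufs5, Ndufab1, Uqcrq, Ndufaf3, Atp5g1) were added after their values were seen. So were Cdh5, Pdgfrb, Abcc9, Rgs5, Kcnj8, Myl3, Sln, Cox16, Acta2, Cnn1, Actg2, Des, Lmod1, Dio2, Cidea, Elovl3 and the white fat markers.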

Additional observations from a re-analysis of the deposited data

How the results depend on the processing

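No member was called lower by edgeR, DESeq2 or limma-voom under any alternative run, and every median log2 fold change was positive, from 0.22 (without TGFalpha replicate 1) to 0.68 (without TGFalpha replicate 3). The 2 members called higher were Atp5g3 and Ndufa13 under DESeq2 size factors, library totals, TMM without the 20 most abundant genes, both filters and limma-voom. With DESeq2 size factors 85 of 90 members were positive, against 87. DESeq2 called 10 members higher, the same 2 among them. An adjusted p of 0.01 left 0. Leaving out 1 library gave 0 to 3 calls and leaving out both replicates numbered 1 gave 0. The number of genes called over the whole table also fell with fewer libraries (264 higher after removing control replicate 2, 204 for control replicate 3 and 317 for TGFalpha replicate 1).

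With replicate numbers as a block, 7 of 90 members were called higher (Atp5g1, Atp5g3, Cox6b1, Cox7c, Ndufa13, Ndufb11 and Ndufb5). The background in that fit was 802 of 16089 genes called higher. Deviations of same-numbered libraries correlated at 0.421, -0.052 and 0.222, highest for the pair of muscle-rich libraries. Control replicate 2 correlated best with TGFalpha replicate 3 (0.377). The labels give no pairing beyond the replicate number. Cox8b, Cox8c and Cox7b2 did not pass the filter. Without it 92 members were tested and Cox8c, at 0 counts, was not.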
